A study of Nematostella vectensis with 18 samples.

Results

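A set of 60 genes was higher in Nep3-positive cells than in Nep3-negative ones, and lower in Ncol3-positive cells than in Ncol3-negative ones, in tentacles of the sea anemone Nematostella vectensis. The genes were chosen from the measured values themselves. The level of a gene was its CPM, the count scaled to a common library size, after TMM adjustment for library composition, and each group was summarised by its mean log2(CPM + 1). A gene had to reach a mean of 5 CPM in its highest group, an Nep3 difference (positive minus negative) of at least 0.5 and an Ncol3 difference of at most -0.25. Of 23764 genes with any count, 14247 reached the CPM floor and 205 met both differences, after 21 genes were left out whose Ncol3 difference was under 0.5 in size and whose Nep3-positive level was at least 1 log2 unit above every other group. The 60 genes whose smaller difference, in size, was highest were kept and ranked by it. The differences that chose the genes are therefore given as a description, and no test on them counts as support.

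RNA was sequenced in bulk from sorted cells of 2 reporter lines, Nep3::mOrange and Ncol3::mOrange, each named for the gene whose control the fluorescent protein is under. The 4 populations were Nep3-positive cells (n = 5 libraries), Nep3-negative cells (n = 5), Ncol3-positive cells (n = 4) and Ncol3-negative cells (n = 4). All came from dissected, enzymatically dissociated tentacles of untreated polyps, and the series text describes the polyps as adult. Age, the number of animals in a library and whether a line goes back to 1 founder are not given in the sources used here. The labels call the Nep3-positive cells nematocytes in 1 field and cnidocytes in another, and call the Ncol3-positive cells cnidocytes. Unmarked cnidocytes may be among the negative cells. The series text calls the replicates biological, but the labels do not say whether they came from separate animals, so the spread is that between libraries and may be partly technical.

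Cnidocytes are the stinging cells of cnidarians, and each builds a pressurised capsule inside a Golgi-derived vesicle. In Nematostella they include nematocytes, whose capsule discharges a venom-carrying thread, and spirocytes, whose thread is adhesive. Ncol3 encodes a minicollagen, a protein of the capsule wall, and Nep3 encodes a precursor of a nematocyte toxin. The 2 reporters thus report on the promoters of a structural and of a toxin gene of the same organelle. Gene IDs of the count table matched no entry of the RefSeq gene table used for names (0 matches), so the 60 genes are given by ID, with no role, position or sequence.

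Library totals lay between 5463324 and 15269119 counts. The reporter transcript mOrange2, the only cell marker that could be looked up by name, was at 547 to 941 CPM in Nep3-positive libraries and 31.8 to 185 CPM in Nep3-negative libraries. It was at 685 to 1272 CPM in Ncol3-positive libraries and 213 to 370.3 CPM in Ncol3-negative libraries. Positive and negative libraries of a line did not overlap. Ncol3-positive libraries stood apart in composition. Their 20 highest genes took 20.7% to 34.9% of the counts, against 11.2% to 13.2% in Ncol3-negative libraries, and their TMM factors were 0.537 to 0.945 against 1.19 to 1.30. The lowest factors belonged to Ncol3-positive replicates 3 and 4.

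The pattern was less common than its mirror image with TMM scaling and more common with library size as the only scaling. With TMM, 205 genes met the rule and 1020 met the same thresholds mirrored (up in the Ncol3 reporter's positive cells, down in those of the Nep3 reporter); with library size only, 1566 genes met the rule and 669 its mirror image. In the same space 1168 genes were at least 0.5 log2 units higher in both positive populations and 1202 were at least 0.5 lower in both. The differences of the 60 genes were small on this scale, where the added 1 CPM shrinks differences at low levels. Their Nep3 difference ran from 0.51 to 2.33 with a median of 0.81, and their Ncol3 difference ran from -1.32 to -0.51 with a median of -0.63. The medians over all 18771 genes tested were both 0.01. For 43 of the 60 genes the Nep3 difference was the larger one in size. A difference of at least 1 log2 unit was reached by 18 genes in the Nep3 line (all genes tested: 9.32%), by 6 in the Ncol3 line (all genes tested: 6.26%), and by NV2.14807 and NV2.24978 in both. The log2 fold changes of the edgeR fit gave another selection. NV2.13664 (1.01 and -1.33) and NV2.16581 (1.57 and -1.18) were then beyond 1 in size in both lines. NV2.14807 (1.27 and -0.97) was not.

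**Figure D1:**
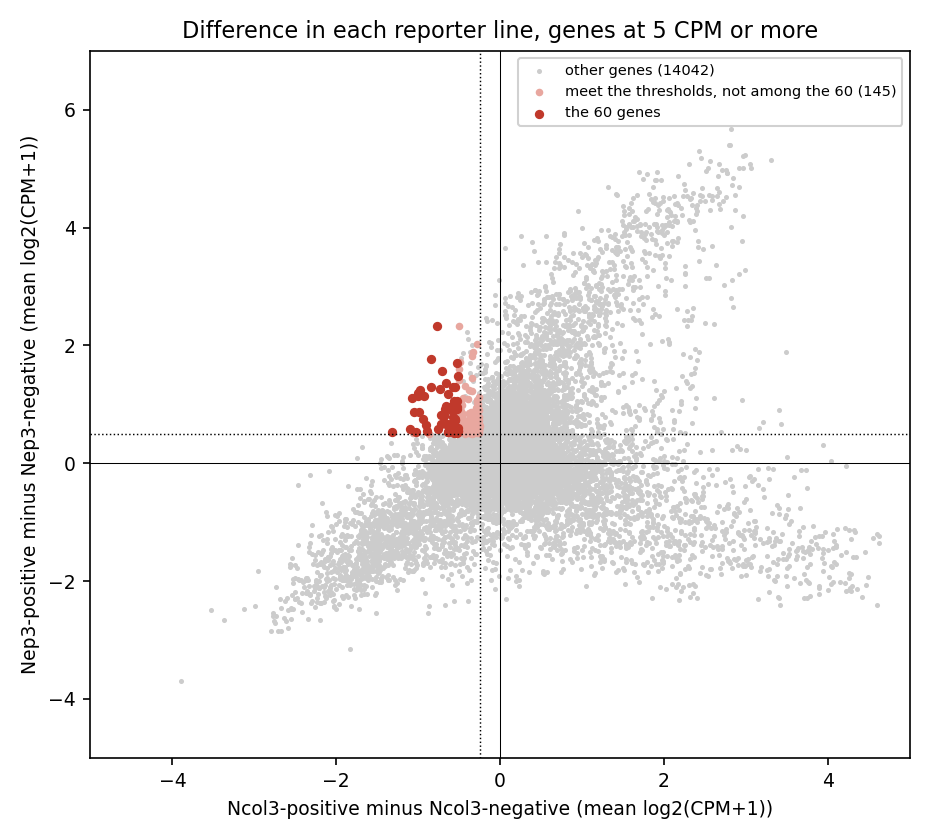
Difference between positive and negative cells in the Nep3 line (vertical axis) against that in the Ncol3 line (horizontal axis), both as mean log2(CPM + 1), for the 14247 genes at or above 5 CPM in a group; dotted lines mark the thresholds of 0.5 and -0.25. The 60 genes (dark red) sit at the edge of the sparsely filled upper left, close to the centre, while the arms of large differences run to the upper right, lower left and lower right.

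The choice of 60 cut through a continuum. The last 3 genes inside, NV2.14203, NV2.3983 and NV2.11192, had a smaller difference that rounds to 0.51. The first 3 outside, NV2.23099, NV2.6774 and NV2.17788, had one that also rounds to 0.51. NV2.17788 is thus not in the set although its Nep3 difference was 2.34, because its Ncol3 difference was -0.51.

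The 60 genes were on the whole lower in CPM than the genes tested. In 28 of them no group mean reached 10 CPM, and in 9 a group mean reached 50 CPM. The median gene had 7.18 CPM over all libraries, against 12.1 CPM for all genes tested and 20.3 CPM for the 14247 genes at the CPM floor. CPM is not divided by transcript length, so these figures describe how many counts stand behind a gene. The median count of the 60 genes was between 77.0 and 182 in Nep3-positive libraries, 47.5 and 77.5 in Nep3-negative, 26.0 and 52.0 in Ncol3-positive, and 58.5 and 118 in Ncol3-negative libraries. The biological coefficient of variation in the edgeR fit was 27.2% for the median member, against 23.6% for the median of all genes tested, and 39 of the 60 lay above that value. For genes at the CPM floor that entered the fit the median was 20.9%.

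Together the 60 genes made up 0.167% ± 0.0140 of the counts in Nep3-positive libraries (SD, n = 5) and 0.0855% ± 0.00993 in Nep3-negative libraries (n = 5). In the Ncol3 line they made up 0.0430% ± 0.0150 in Ncol3-positive libraries (n = 4) and 0.115% ± 0.00434 in Ncol3-negative libraries (n = 4). After scaling, their summed level was 1402 to 1917 CPM in Nep3-positive, 743 to 841 in Nep3-negative, 532 to 620.1 in Ncol3-positive and 899 to 992 in Ncol3-negative libraries. In bulk samples, fewer cells that express a gene and less of its RNA per cell cannot be told apart.

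The 12 genes with the highest rank were read library by library, in the order of replicates. NV2.14807, ranked first, was at 10.5, 10.03, 19.7, 14.5 and 19.7 CPM in Nep3-positive and 6.97, 5.16, 5.91, 5.47 and 7.30 CPM in Nep3-negative libraries. It was at 3.96, 4.70, 0 and 2.50 CPM in Ncol3-positive and 6.38, 5.68, 4.60 and 6.14 CPM in Ncol3-negative libraries. Every Nep3-positive library was above every Nep3-negative one, while Ncol3-positive replicate 2 was above Ncol3-negative replicate 3. The 0 in Ncol3-positive replicate 3 is a count of 0 in 10213879, which allows up to 0.498 CPM (3 counts, covering counting error only). The Nep3 difference was 1.10 (SE 0.21) and the Ncol3 difference -1.08 (SE 0.58); here and below the SE comes from the spread between libraries on the log2(CPM + 1) scale. NV2.24978 showed the same layout without overlap in either line. It was at 34.8, 34.7, 40.2, 37.5 and 49.97 CPM in Nep3-positive libraries and at 24.2, 18.9, 15.3, 11.5 and 14.8 CPM in Nep3-negative libraries. Ncol3-positive libraries had 11.5, 7.97, 5.98 and 11.5 CPM, and Ncol3-negative libraries had 22.3, 20.4, 17.6 and 16.1 CPM. The 2 negative populations lay close together, with Nep3-positive cells above and Ncol3-positive cells below both. Its Nep3 difference was 1.20 (SE 0.19) and its Ncol3 difference -1.01 (SE 0.23). NV2.13084 was at 48.6, 36.5, 63.8, 55.5 and 74.2 CPM in Nep3-positive and 28.9, 26.9, 22.3, 16.3 and 19.2 CPM in Nep3-negative libraries. Its Ncol3-positive libraries were tightly grouped at 12.6, 9.93, 10.3 and 12.3 CPM, and Ncol3-negative libraries had 23.5, 17.3, 24.5 and 28.9 CPM. Neither line overlapped, and the differences were 1.25 (SE 0.22) in the Nep3 line and -0.98 (SE 0.17) in the Ncol3 line.

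NV2.25121 averaged 21.4 ± 4.11 CPM in Nep3-positive and 9.30 ± 2.39 CPM in Nep3-negative libraries (SD, n = 5 each), and 5.66 ± 1.53 CPM in Ncol3-positive and 12.3 ± 2.95 CPM in Ncol3-negative libraries (n = 4 each). No library of a positive group overlapped its negative group. NV2.16581, also without overlap in either line, rested on lower levels. It had 5.18, 6.89, 4.77, 6.70 and 3.92 CPM in Nep3-positive, 1.54, 0.898, 0.603, 2.77 and 3.10 CPM in Nep3-negative, 1.39, 2.22, 0.997 and 2.17 CPM in Ncol3-positive and 3.31, 3.41, 2.56 and 6.45 CPM in Ncol3-negative libraries. NV2.12221 had a single library out of place. Its Ncol3-positive libraries were at 3.75, 3.01, 8.81 and 3.33 CPM, so that replicate 3 fell among the Ncol3-negative values of 10.5, 8.32, 8.76 and 9.21 CPM. Its Nep3-positive libraries (32.4, 29.1, 24.0, 18.3 and 33.4 CPM) were all above the Nep3-negative ones (13.04, 11.4, 12.2, 10.6 and 11.3 CPM). The Nep3 difference was 1.13 (SE 0.16) and the Ncol3 difference -0.93 (SE 0.30). NV2.13664 had a count of 0 in Ncol3-positive replicate 3, with the same limit of 0.498 CPM, and 1.34 ± 1.03 CPM on average in Ncol3-positive libraries, against 3.41 ± 1.39 CPM in Ncol3-negative libraries. In the Nep3 line it averaged 10.2 ± 3.82 CPM in positive and 5.05 ± 1.66 CPM in negative libraries, and these did not overlap, if by a narrow margin. The largest Nep3 difference of the set was that of NV2.568, at 2.33 (SE 0.27). Its levels were 9.59, 11.9, 10.3, 6.78 and 12.4 CPM in Nep3-positive libraries and 0.272, 1.01, 2.17, 1.24 and 1.77 CPM in Nep3-negative libraries. In the Ncol3 line they were 2.46, 1.18, 0.498 and 3.00 CPM in positive and 2.35, 3.41, 2.92 and 5.68 CPM in negative libraries, which overlapped (difference -0.77, SE 0.39). The Nep3 difference of NV2.568 is a 5.03-fold ratio of CPM + 1, which the added 1 shrinks at these low levels. The edgeR fit gave a log2 fold change of 2.98.

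High rank did not mean agreement between replicates. NV2.11417 was at 9.53, 7.06, 0.997 and 1.499 CPM in Ncol3-positive libraries, high in replicates 1 and 2, and at 3.55, 15.1, 1.61 and 21.7 CPM in Ncol3-negative libraries, high in replicates 2 and 4. Its Ncol3 difference of -0.84 (SE 0.95) was smaller than its standard error. In the Nep3 line its positive libraries (10.7, 26.6, 17.2, 16.9 and 12.98 CPM) were all above the negative ones (2.45, 8.75, 5.19, 2.12 and 3.83 CPM). NV2.4281 overlapped in both lines. It had 4.49, 2.63, 7.199, 4.38 and 12.2 CPM in Nep3-positive and 0.725, 1.91, 4.10, 2.41 and 5.68 CPM in Nep3-negative libraries, and 2.03, 0.392, 1.16 and 8.49 CPM in Ncol3-positive and 5.30, 1.77, 7.67 and 9.52 CPM in Ncol3-negative libraries. Its differences were 0.86 (SE 0.46) and -1.05 (SE 0.73). NV2.23093 did not overlap in the Ncol3 line (Ncol3 difference -0.94, SE 0.30) but did in the Nep3 line, where replicate 2 of the positive libraries was at 20.1 CPM and replicate 1 of the negative libraries at 22.8 CPM. NV2.14531 was the other way round, separated in the Nep3 line (1.26, SE 0.28) and overlapping in the Ncol3 line (-0.73, SE 0.38).

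**Figure D2:**
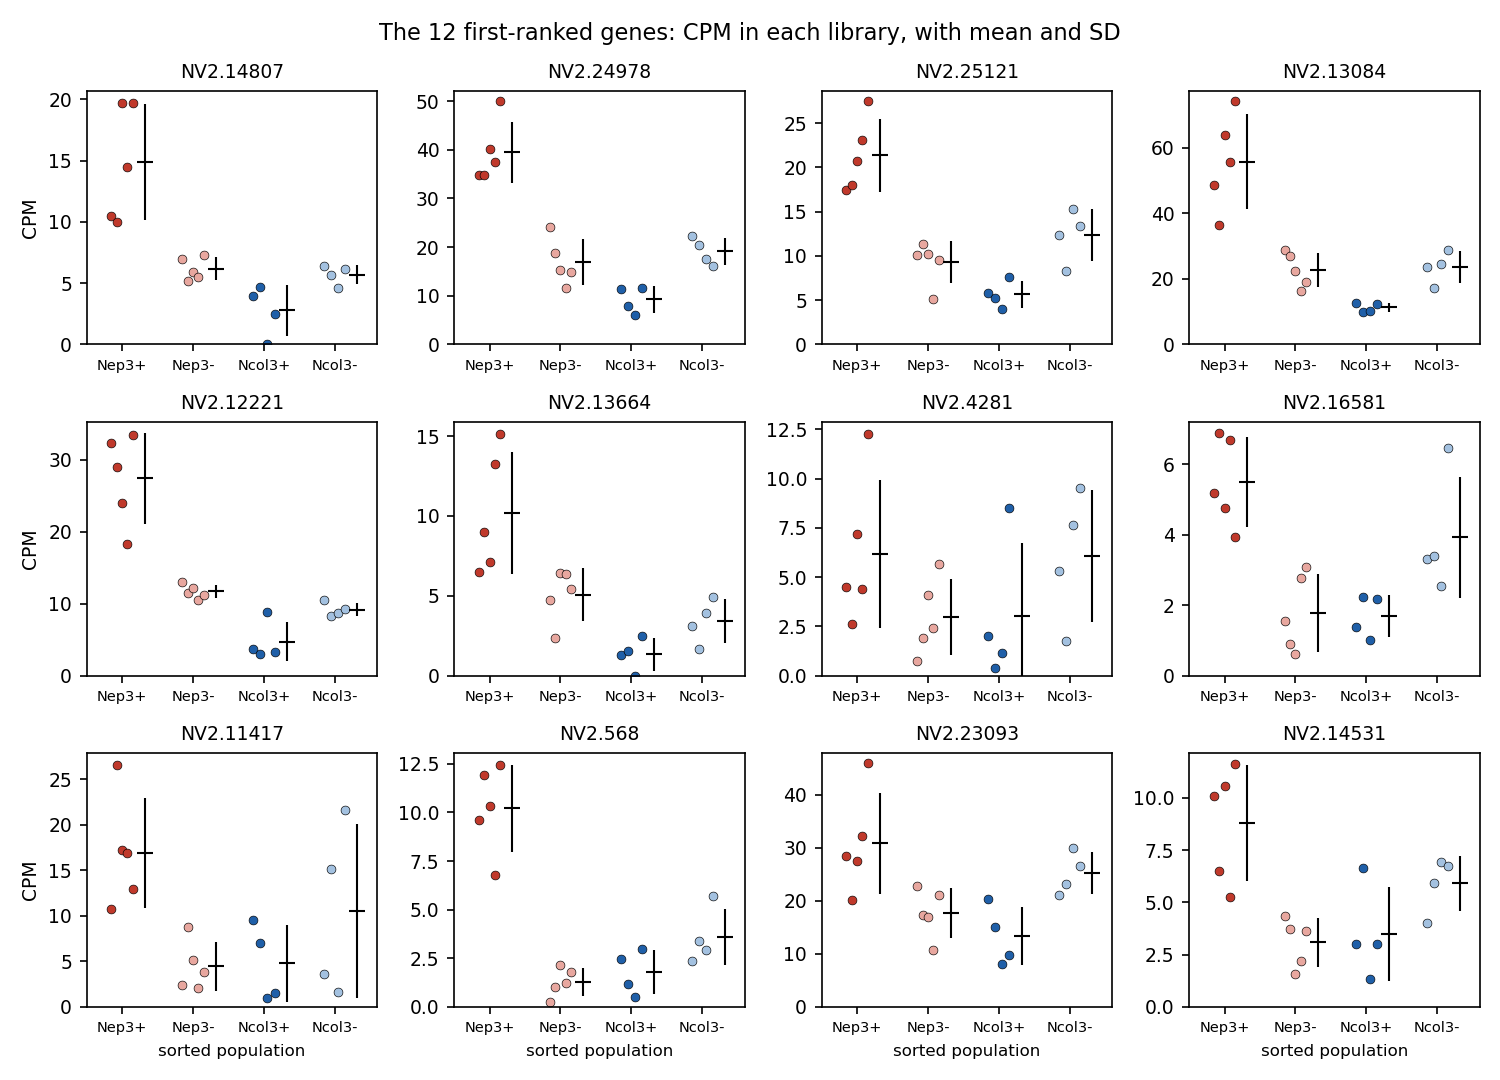
CPM of the 12 first-ranked genes in each library (points) with the mean and SD of the group (bar beside the points; a bar reaching below 0 is cut there), for Nep3-positive, Nep3-negative, Ncol3-positive and Ncol3-negative cells. Nep3-positive libraries are highest in most panels, whereas NV2.4281 and NV2.11417 show wide, overlapping groups in the Ncol3 line.

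The 5 genes with the highest mean CPM in Nep3-positive cells come next. NV2.1765 was at 154, 105, 189, 164 and 219 CPM in Nep3-positive and 56.8, 54.7, 48.9, 37.8 and 50.05 CPM in Nep3-negative libraries, a difference of 1.70 (SE 0.20). In the Ncol3 line it was at 44.7, 44.9, 37.6 and 29.8 CPM in positive and 44.0, 75.3, 48.4 and 61.7 CPM in negative libraries, which overlapped by a narrow margin (difference -0.52, SE 0.22). NV2.20621 was at 109, 143, 159, 154 and 179.8 CPM in Nep3-positive and 55.2, 49.3, 68.0, 68.5 and 46.7 CPM in Nep3-negative libraries (difference 1.36, SE 0.16). Its Ncol3-positive libraries were at 33.9, 33.8, 49.3 and 46.6 CPM and its Ncol3-negative libraries at 69.3, 54.4, 69.8 and 65.1 CPM (difference -0.66, SE 0.16). Neither line overlapped, and Ncol3-positive replicates 1 and 2 were lower than replicates 3 and 4. NV2.24040 was at 110.0, 105, 126, 98.2 and 164 CPM in Nep3-positive and 58.0, 56.2, 70.4, 67.4 and 58.4 CPM in Nep3-negative libraries, and at 36.6, 42.7, 42.5 and 39.0 CPM in Ncol3-positive and 65.3, 50.6, 65.2 and 56.2 CPM in Ncol3-negative libraries. Neither line overlapped, with differences of 0.93 (SE 0.14) and -0.54 (SE 0.10).

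NV2.5045 had the lowest Ncol3 difference of the set, -1.32 (SE 0.16). Its libraries were at 23.6, 23.5, 17.4 and 22.2 CPM in Ncol3-positive and 47.9, 57.3, 48.6 and 69.1 CPM in Ncol3-negative cells. In the Nep3 line the positive libraries were at 87.9, 67.3, 104, 98.2 and 115 CPM and the negative ones at 73.2, 76.5, 64.3, 45.5 and 66.0 CPM, which overlapped (difference 0.53, SE 0.18). NV2.11192 had modest differences of 0.51 (SE 0.15) and -0.53 (SE 0.12) and no overlap in either line. It averaged 146 ± 24.3 CPM in Nep3-positive and 102 ± 14.3 CPM in Nep3-negative libraries (SD, n = 5 each), and 63.0 ± 8.81 CPM in Ncol3-positive and 91.0 ± 8.43 CPM in Ncol3-negative libraries (n = 4 each). NV2.14203, one of the last genes inside the cut, had its Nep3-positive libraries far above all others. It was at 56.2, 60.04, 53.3, 66.4 and 58.6 CPM in Nep3-positive, 17.9, 21.3, 18.7, 20.7 and 23.5 CPM in Nep3-negative, 17.1, 15.4, 9.80 and 15.3 CPM in Ncol3-positive and 20.2, 21.2, 23.7 and 17.8 CPM in Ncol3-negative libraries. Neither line overlapped, and the differences were 1.48 (SE 0.08) and -0.51 (SE 0.18). NV2.3983 had differences of 0.55 (SE 0.14) and -0.51 (SE 0.20), with averages of 9.53 ± 1.00 CPM in Nep3-positive, 6.25 ± 1.37 CPM in Nep3-negative, 5.19 ± 1.19 CPM in Ncol3-positive and 7.80 ± 1.61 CPM in Ncol3-negative libraries.

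The rule set the order within each line, and only its clause for leaving genes out compared Nep3-positive cells with all 3 other groups, so the order of the 4 populations is a description from the same libraries. Nep3-positive cells had the highest mean in 52 of the 60 genes and Ncol3-positive cells the lowest in 49. The full order Nep3-positive, Ncol3-negative, Nep3-negative, Ncol3-positive, from high to low, was found for 36 genes, and the order with the 2 negative groups exchanged for 12. In the other 12 genes Ncol3-negative cells were highest, Nep3-negative cells were lowest, or both. Among all genes tested the Nep3-positive mean was above the Ncol3-negative mean in 51%, against 52 of the 60 genes here. The Ncol3-positive mean was below the Nep3-negative one in 46.1%, against 49 here. The Nep3-negative mean was at or above the Ncol3-negative one in 51.1%, against 12 here. No share over all genes was computed for the full orders. The median difference between Nep3-positive and Ncol3-negative cells was 0.56 for the 60 genes and 0.01 for all genes tested. Both groups enter the rule, so this difference is not independent of the rule. The groups also come from different reporter lines, so population and line cannot be told apart in it.

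The negative populations of the 2 lines were not the same baseline for every gene. Nep3-negative minus Ncol3-negative had a median of -0.27 over the 60 genes and 0.01 over all genes tested. It was within 0.25 of 0 in 25 genes, at or below -0.5 in 18 and at or above 0.25 in 4. Since a low Nep3-negative or a high Ncol3-negative value favours selection, a negative median is also what the choice of genes leans towards. In edgeR's quasi-likelihood test, 5 of the 60 genes passed an adjusted p of 0.05, all as lower in Nep3-negative cells (NV2.568, NV2.2157, NV2.12199, NV2.11855 and NV2.20207). Of all entries tested, 3.55% were called lower and 8.56% were called in either direction. Nothing is read from these counts because the rule used the same libraries.

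Of these, NV2.12199 was the most uneven. It was at 3.02, 3.01, 8.82, 3.69 and 6.69 CPM in Nep3-positive and 1.27, 0.224, 1.69, 1.24 and 2.87 CPM in Nep3-negative libraries, while Ncol3-positive libraries had 6.53, 6.53, 6.15 and 4.00 CPM and Ncol3-negative libraries 6.93, 11.6, 7.96 and 10.1 CPM. Nep3-positive cells therefore overlapped Ncol3-positive cells. Relative to Ncol3-negative cells, both Nep3 populations were lower, at -2.12 (SE 0.31) in Nep3-negative and -0.82 (SE 0.30) in Nep3-positive cells. NV2.12199 was named for having the lowest of the former differences. NV2.20207 had 41.1, 47.0, 26.3, 17.2 and 13.7 CPM in Nep3-positive and 15.4, 12.6, 19.8, 29.9 and 15.9 CPM in Nep3-negative libraries, which overlapped widely (difference 0.52, SE 0.39). In the Ncol3 line it had 38.1, 49.4, 33.1 and 19.0 CPM in positive and 57.3, 50.2, 47.0 and 43.9 CPM in negative libraries. Its Nep3-positive level differed by -0.89 (SE 0.34) from Ncol3-negative cells. For NV2.11855 the differences from Ncol3-negative cells were -0.63 (SE 0.29) in Nep3-positive and -1.30 (SE 0.25) in Nep3-negative cells. Together with NV2.24613, NV2.2157, NV2.8296, NV2.20164 and NV2.14724, these 3 were the 8 genes of the set whose highest mean was in Ncol3-negative cells. In NV2.12199, NV2.11855 and NV2.20207 the Nep3-positive mean was also below the Ncol3-positive one, while in the other 5 it was above it.

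At the other end, NV2.13664, NV2.4635 and NV2.14261 had the highest differences between Nep3-negative and Ncol3-negative cells, at 0.46 (SE 0.33), 0.45 (SE 0.18) and 0.38 (SE 0.21). NV2.4635 averaged 14.6 ± 5.87 CPM in Nep3-positive and 8.74 ± 2.14 CPM in Nep3-negative libraries (SD, n = 5 each), which overlapped, and 4.13 ± 2.61 CPM in Ncol3-positive and 6.03 ± 0.901 CPM in Ncol3-negative libraries (n = 4 each). NV2.14261 had 1.28, 1.44, 0.831 and 1.499 CPM in Ncol3-positive libraries, all below the 3.97, 1.77, 1.83 and 2.76 CPM of Ncol3-negative libraries. In the Nep3 line it averaged 5.68 ± 1.42 CPM in positive and 3.55 ± 0.471 CPM in negative libraries. Relative to Ncol3-negative cells, Nep3-positive cells were highest for NV2.1765 at 1.51 (SE 0.25), NV2.14203 at 1.47 (SE 0.10) and NV2.12221 at 1.45 (SE 0.17).

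**Figure D3:**
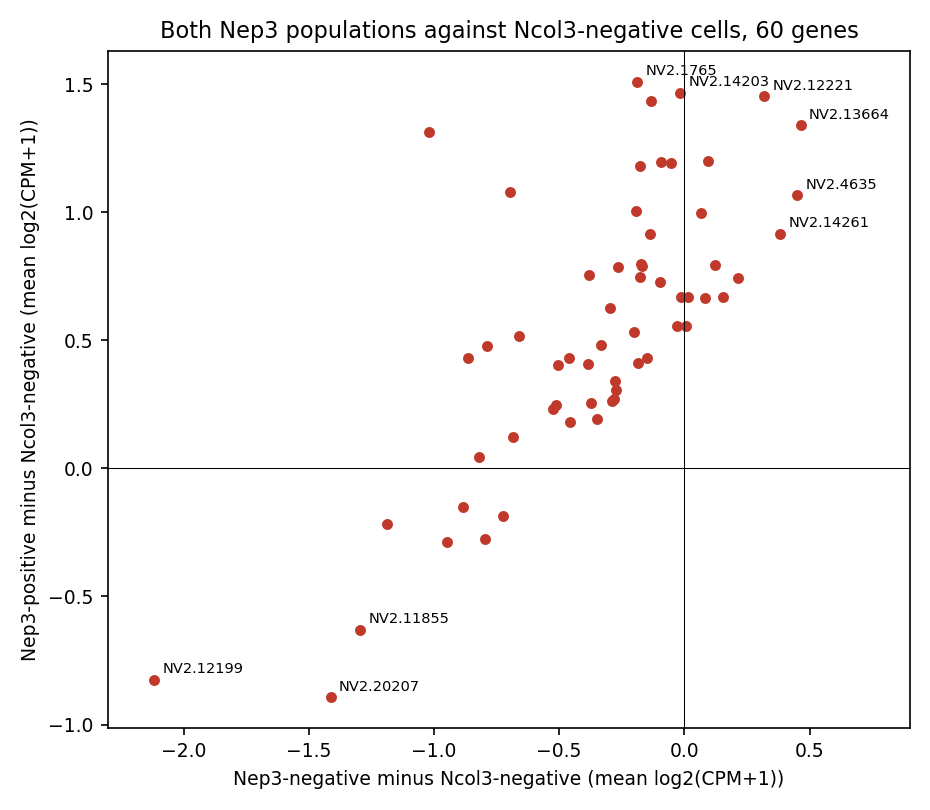
Nep3-positive minus Ncol3-negative (vertical axis) against Nep3-negative minus Ncol3-negative (horizontal axis), as differences of mean log2(CPM + 1), for the 60 genes; the 9 genes named for their place on either axis are labelled. On the horizontal axis 25 points lie within 0.25 of 0, on the vertical axis 52 lie above 0, and 8 lie below 0 on both, down to NV2.12199 and NV2.20207.

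The replicates were then read across the whole set. Every Nep3-positive library exceeded every Nep3-negative library in 36 of the 60 genes (all genes tested: 15.2%). Every Ncol3-positive library was below every Ncol3-negative library in 24 (all genes tested: 11.9%). Both held in 19 genes, beside 0.202% of all genes tested. All 5 Nep3-positive libraries exceeded all 13 other libraries in 24 genes, beside 8.17%, and all 4 Ncol3-positive libraries lay below the 14 others in 12, beside 2%. Nep3-positive libraries were all above the Ncol3-positive ones in 42 genes, beside 15.6%, and all above the Ncol3-negative ones in 26, beside 17.1%. Same-numbered libraries differed in the direction of the rule in 5 of 5 Nep3 pairs for 48 genes (all genes tested: 23%) and in 4 of 4 Ncol3 pairs for 41 (all genes tested: 19%). As the genes were selected on these libraries, these shares describe how evenly the differences were spread and support nothing further.

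All 60 genes passed the filter on low counts and entered the edgeR fit of 18772 entries. The calls in the 2 lines are on the differences that chose the genes, so the choice favours them and nothing is read from their number. By edgeR's quasi-likelihood test with Benjamini-Hochberg adjustment at 0.05, 47 of the 60 were called higher in Nep3-positive than in Nep3-negative cells, beside 19.9% of all entries tested. In the Ncol3 line 23 were called lower in positive cells, beside 11.1%. This was the less stable count, at 7 with only Ncol3 replicates 1 and 2 and 57 with library size as the only scaling. Shares over all genes were not computed for those settings. Both calls were made for 19 genes, the Nep3 call alone for 28, the Ncol3 call alone for 4 (NV2.16510, NV2.15372, NV2.14261 and NV2.14724) and neither for 9. Among the 9 were NV2.4281 and NV2.20207, both already described. Over all genes tested, 41 (0.218%) had both calls in these directions. Between the positive populations, 49 of the 60 were called higher in Nep3-positive than in Ncol3-positive cells, beside 19.2%, with a median difference of 1.20. Between Nep3-positive and Ncol3-negative cells 26 were called, all of them higher, beside 19.2% of all entries called higher and 34.7% called in either direction. With only Ncol3 replicates 3 and 4 there were 17, again without a share over all genes. The 5 comparisons share libraries with the rule and with each other, so these counts are a description. In those between the lines, cell population and reporter line cannot be told apart.

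**Figure D4:**
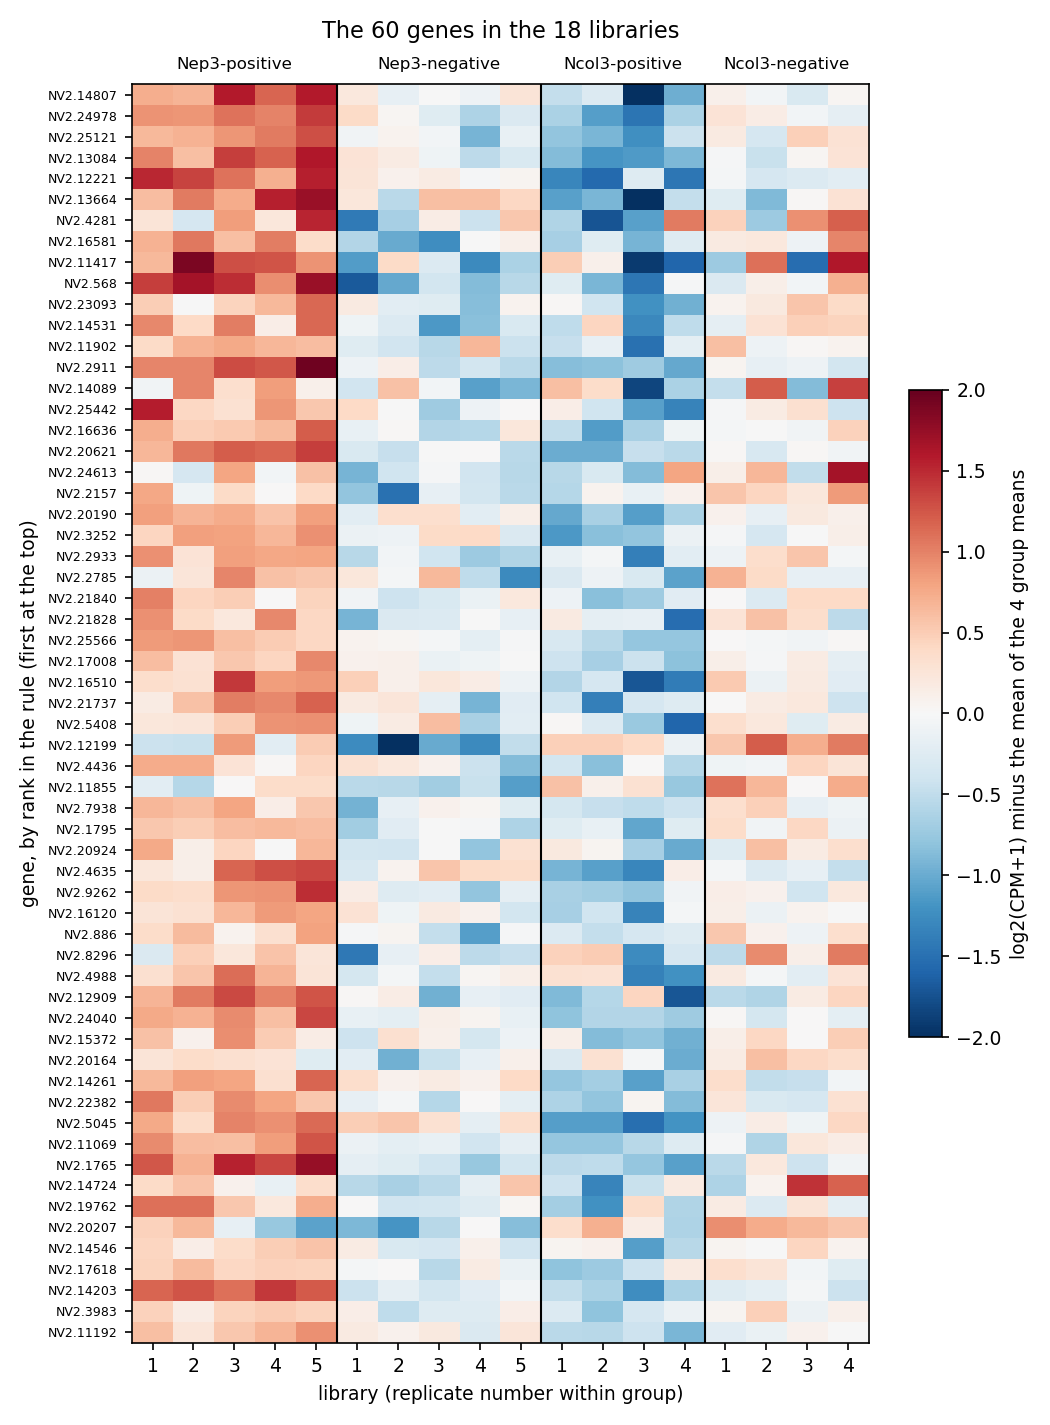
Level of the 60 genes (rows, first rank at the top) in the 18 libraries (columns, by population and replicate), as log2(CPM + 1) minus the mean of the gene's 4 group means; 3 of the 1080 values beyond 2 in size are drawn at that limit. The Nep3-positive columns are mostly red and the Ncol3-positive columns mostly blue, with both negative populations in between, and rows such as NV2.11417 and NV2.20207 depart from this.

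Within the Ncol3 line, replicates 1 and 2 and replicates 3 and 4 gave different sizes. The median Ncol3 difference of the 60 genes was -0.55 in replicates 1 and 2 and -0.78 in replicates 3 and 4, against 0.01 and 0.02 for all genes tested. Over all genes tested the differences were also wider in the second pair. Their quartiles were -0.32 and 0.35 in replicates 1 and 2, and -0.40 and 0.50 in replicates 3 and 4. Among the 60 genes the Ncol3 difference was below 0 in 55 in the first pair and in 59 in the second. It was below 0 in both for 54 genes, beside 34.2% of all genes tested. The second pair had the lower value in 41 genes, for which no share over all genes was computed. These replicate pairs also differed in composition. In Ncol3-positive replicates 1 to 4 the 20 highest genes took 20.7, 21.5, 34.0 and 34.9% of the counts, and mOrange2 was at 685, 783, 1162 and 1272 CPM. Whether this has a part in the larger differences of replicates 3 and 4 was not tested. Because the rule used the mean of all 4 replicates, a high value in one pair had to be offset by a low one in the other. The exceptions in replicates 1 and 2 were NV2.11417, NV2.14089, NV2.8296, NV2.4988 and NV2.14546, and NV2.17618 in replicates 3 and 4. NV2.8296 was at 17.2, 17.8, 4.49 and 9.49 CPM in Ncol3-positive and 8.19, 24.5, 13.3 and 26.1 CPM in Ncol3-negative libraries. NV2.14089 was at 11.7, 9.67, 1.33 and 4.33 CPM in positive and 5.00, 18.3, 3.58 and 20.4 CPM in negative libraries. In NV2.11417, NV2.14089 and NV2.8296 alike, Ncol3-negative replicates 2 and 4 were above replicates 1 and 3. These 3 were picked out after their values were seen. Replicates 2 and 4 were also the libraries of this group with fewer counts, 6092256 and 5463324 in total. Replicates 1 and 3 had 13624512 and 11292199. Whether depth has a part in the split was not tested.

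**Figure D5:**
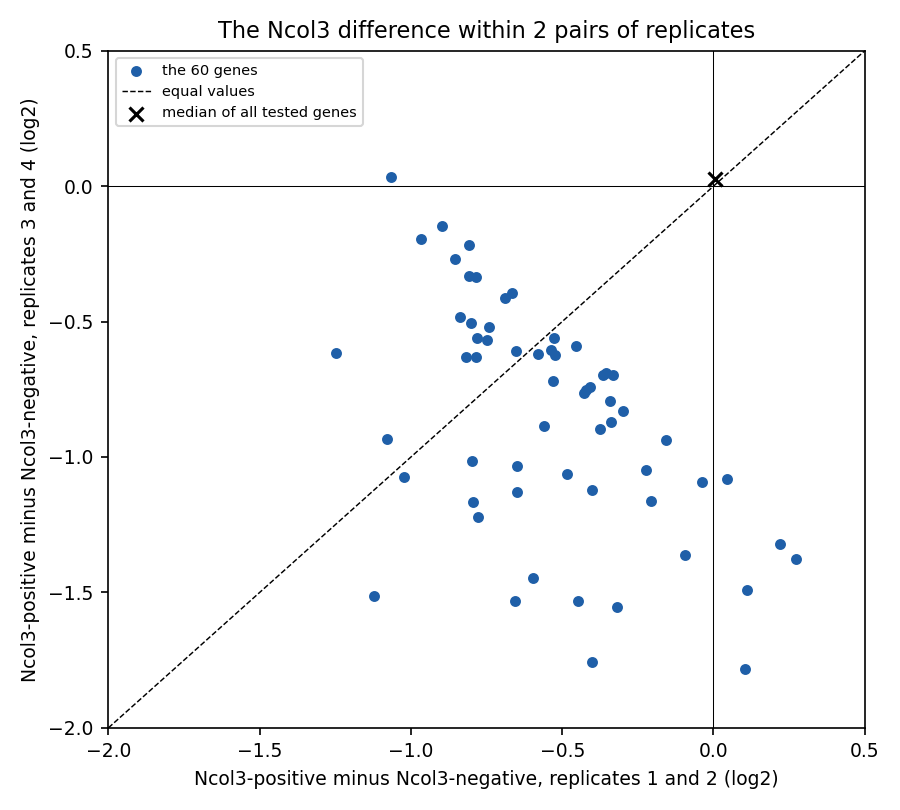
Ncol3-positive minus Ncol3-negative within replicates 3 and 4 (vertical axis) against the same within replicates 1 and 2 (horizontal axis), as differences of mean log2(CPM + 1), for the 60 genes (points) and the median of all genes tested (cross); the dashed line marks equal values. Nearly all points lie below 0 on both axes and 41 lie below the line; the rule fixed the mean of the 2 values.

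Some libraries were the extreme of their group more often than others. Nep3-positive replicate 5 was the highest of its group in 27 of the 60 genes, against 22% of all genes tested, and had the highest summed level of the set, 1917 CPM. Ncol3-positive replicate 3 was the lowest of its group in 27 genes, against 26.7%, with the lowest summed level of 532 CPM. The rule favours genes with a high Nep3-positive or a low Ncol3-positive library, so these counts are a description. Without Nep3-positive replicate 5 and with scaling and selection repeated, 50 of the 60 genes still met the rule and 44 stayed among the first 60. Without Ncol3-positive replicate 3 these numbers were 56 and 43. Across the 18 ways of leaving out 1 library, 32 genes met the rule every time and 13 were among the first 60 every time.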

How the data were processed

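The authors deposited 1 table of raw counts per gene for the 18 libraries, with no normalization; the unit was read from the values. Trimmomatic, STAR 2.7.10a and featureCounts 2.0.1 are named in the submitters' processing notes. Their settings, the genome build, the annotation and the strand setting are not given in the sources used here, so near-identical and overlapping genes are uncertain. Poly(A) RNA was made into directional libraries, per the labels' protocols. Of 24538 entries, 773 had no count, and 1 is mOrange2.

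TMM factors were computed with edgeR 4.0.16 in R 4.3.3 from all gene entries with any count, CPM from the scaled library sizes, and group means from log2(CPM + 1). Counts were tested with edgeR's quasi-likelihood test (robust, 1 mean per group, all 18 libraries together) on the 18772 entries passing filterByExpr, with two-sided p-values adjusted by Benjamini-Hochberg at 0.05; the fit was also tested on simulated data. The common coefficient of variation was 25.3%. DESeq2 1.42.0 was an alternative.

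Groups and replicate numbers follow the sample titles; descriptions number all 5 Nep3-positive libraries 1, and the series text gives 4 replicates per condition. All libraries have the same batch label. The members and lists were chosen with earlier results of these data known. Gene lists and cell markers by name could not be used without gene names, apart from mOrange2. Named genes are ranks 1 to 12, the 5 highest in Nep3-positive CPM, the 3 at each end of the differences of the Nep3 groups from Ncol3-negative cells, and the 3 on each side of the cut. Genes outside that rule were named after their values were seen.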

Additional observations from a re-analysis of the deposited data

Results flagged for a closer look

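In the 24 named genes, 96 groups of 4 or 5 libraries were examined for a library far from the others, by the ratio of its gap to the group's range. Chance flags about 1 in 20 such groups, and 4 were flagged here. NV2.12221 was at 8.81 CPM in Ncol3-positive replicate 3, while the other 3 Ncol3-positive libraries lay between 3.01 and 3.75 CPM. NV2.12199 was at 4.00 CPM in Ncol3-positive replicate 4, against 6.15 to 6.53 CPM in the others of its group. NV2.25121 was at 5.18 CPM in Nep3-negative replicate 4, against 9.58 to 11.3 CPM in the other 4. NV2.3983 was at 7.77 CPM in Nep3-positive replicate 2, against 9.80 to 10.3 CPM in the other 4. The opposite differences of the 2 lines were not flagged as a result, because the rule chose the genes for them.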

How the results depend on the processing

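The number of genes meeting the rule, 205, changed with the scaling, the libraries used and the CPM floor. It was 1566 with library size only, 332 with TMM computed without the 20 highest genes, 526 with only Ncol3 replicates 3 and 4, and 125 with a floor of 10 CPM. With only Ncol3 replicates 3 and 4, TMM also took another reference library, Nep3-negative replicate 5. The median Ncol3 difference of all genes was then -0.08, so the part of the reference cannot be told apart. Library size only moved the median Ncol3 difference of all genes to -0.63, from which the 60 genes differed by -0.63 in the median. All 60 were below that median. A change of scaling shifts all genes nearly alike, and the genes were chosen for this difference, so neither value counts as support. Leaving out 1 library gave 175 to 368. It was 368, 350, 341, 345, 312, 341 and 332 without Ncol3-negative replicates 1 and 3, Nep3-negative replicates 1 and 2, and Nep3-positive replicates 1, 4 and 5, in that order. In all 7, as in 8 of the 18 settings, TMM took Nep3-negative replicate 3 in place of Nep3-positive replicate 5 as its reference library, and the median Ncol3 difference of all genes was then -0.09 to -0.08 instead of 0.01.

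Of the 60 genes, those called lower in the positive cells of the Ncol3 line numbered 23, but 57 with library size only, 7 with only Ncol3 replicates 1 and 2, 15 with only the 2 groups in the fit, and 17 to 31 without 1 library. The count called higher in Nep3-positive than in Nep3-negative cells was 47, and 39 to 49 without 1 library. It was 38 with library size only, and 36 with a filter at a mean of at least 5 CPM, which left some members untested. Higher in Nep3-positive than in Ncol3-positive were 49 genes (45 to 50 without 1 library), but 39 with only Ncol3 replicates 1 and 2 and 36 with that filter. Higher in Nep3-positive than in Ncol3-negative were 26 (21 to 30 without 1 library), but 17 with only Ncol3 replicates 3 and 4. Between Nep3-negative and Ncol3-negative cells 5 were called, but 9 with library size only, 3 with only Ncol3 replicates 3 and 4, 3 with a mean of at least 5 CPM, 8 with DESeq2, and 4 to 8 without 1 library (8 without Ncol3-negative replicate 1). Shares over all genes were not computed under the changed settings, so the counts are not read as a trait of the 60 genes. The cause of these shifts was not tested. Of the named genes' differences, the Ncol3 difference of NV2.11417 changed sign, to 0.10 with only Ncol3 replicates 1 and 2, and library size only turned round the order of the rule and its mirror image (1566 against 669 genes). Among the recomputed differences of the named genes, 1215 kept their sign and moved by less than the spread between replicates. The other 33 moved by more or changed sign, 19 of them with library size only.

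Same-numbered positive and negative libraries had deviations from their group means that correlated at -0.0335 to 0.330 in the Nep3 line and 0.0348 to 0.303 in the Ncol3 line. Not every pair was above 0.1, so the numbers were not taken to pair the libraries. However, 6 of 10 libraries of the Nep3 line and 4 of 8 of the Ncol3 line correlated best with their own number. Each had 5 candidates in the Nep3 line and 4 in the Ncol3 line. The cut-off of 0.1 therefore cannot show that the libraries were unpaired, and the SEs given above take no account of pairing. With the replicate block, 54 members were called in the Nep3 line and 22 in the Ncol3 line, against 52 and 15 in the same 2-group fits with no block. Calls over all entries, in either direction, rose too. They were 7221 with the block and 7164 without it in the Nep3 line, and 4918 and 4521 in the Ncol3 line. The analysis with TMM on only the genes passing the filter was chosen after seeing the data and gave 248 genes. Low counts limit the precision for the genes under 10 CPM.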
